A study of Mus musculus with 2 samples.

Results

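The chemokines and chemokine receptors described here are the 56 genes, of 22740 in the deposited table, whose symbols consist of Ccl, Cxcl, Cx3cl, Xcl, Ccr, Cxcr, Cx3cr or Xcr followed directly by a number and by nothing more than a final a or b. They comprise 37 ligands and 19 receptors, and were selected by a rule on the symbol that uses no level. RNA was sequenced from the whole uterus of 2 C57BL/6 mice, titled WT, on day 4 of pregnancy, with 1 library per animal. The libraries, called uterus 1 and uterus 2 after their titles, form a single group with no treatment, no other genotype and no other day, and the age of the animals is not stated. Values are RPKM, reads scaled to transcript length and library size, so that levels can be compared between genes, and are given for each uterus or as mean ± SD (n = 2). Whole reads could be recovered from them and summed to 3723493 and 4135141. With whole organs, fewer cells of a type and less RNA per cell cannot be told apart.

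Chemokines are small secreted proteins that direct the movement of leukocytes along gradients held on heparan sulfate, and their receptors are seven-pass membrane proteins that signal mainly through inhibitory G proteins. Families are named for the spacing of the first cysteines of the mature protein. In the uterus they are known for guiding macrophages, dendritic cells, natural killer cells and neutrophils, whose numbers change with ovarian hormones and with pregnancy. Some members, such as Cxcl12, are made constantly by tissue cells, whereas others, such as Cxcl1 and Cxcl2, are known mainly as products of inflammation.

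The spacing that defines each family could be read from the coding sequences of the GENCODE M1 annotation, in which it was found in 34 of the 37 ligands. The other 3, Ccl17, Ccl28 and Cxcl11, had no complete coding sequence there. The stretches below are shown because the results follow these families. Each runs 5′ to 3′ on the coding strand and capitals mark the codons of the first cysteines. In Cxcl1 they also mark the codons of the ELR motif (glutamate, leucine, arginine), which is known to direct a CXC chemokine to Cxcr2 on neutrophils.
Ccl8, bases 76 to 117 of the coding sequence, chromosome 11: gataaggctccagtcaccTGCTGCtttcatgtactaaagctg
Cxcl12, bases 70 to 114, chromosome 6: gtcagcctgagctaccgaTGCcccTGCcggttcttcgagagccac
Cxcl14, bases 55 to 99, chromosome 13: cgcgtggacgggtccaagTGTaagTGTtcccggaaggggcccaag
Cxcl1, bases 79 to 123, chromosome 5: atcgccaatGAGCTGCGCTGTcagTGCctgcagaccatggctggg
Cx3cl1, bases 76 to 126, chromosome 8: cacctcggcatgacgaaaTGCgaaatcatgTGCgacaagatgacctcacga
Xcl1, bases 76 to 114, chromosome 1: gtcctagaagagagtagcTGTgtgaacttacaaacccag
The cysteine codons are adjacent in Ccl8, 1 codon apart in Cxcl12, Cxcl14 and Cxcl1, and 3 codons apart in Cx3cl1, while Xcl1 has a single early cysteine.

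The highest members in the day 4 uterus were the ligands Ccl8, Cxcl14 and Cxcl12 and the receptor Ccr2, while most members lay under the median of all genes. At 1 RPKM or more in both uteri, 29 of the 56 were listed (51.8%), against 58.4% of all genes, so the share is close to that of the table as a whole. Receptors passed in 12 of 19 cases (63.2%) and ligands in 17 of 37 (45.9%). The median of the mean levels was 0.965 RPKM for ligands and 2.21 RPKM for receptors, against 3.23 RPKM over all genes. A further 16 members lay above 0 without passing, with means from 0.129 to 2.16 RPKM, and 11 were listed at 0 in both uteri (23.4% of all genes were). Because Rpl26, a ribosomal protein gene that all cells use, is also listed at 0, a listed 0 is not read as absence. The 11 are the ligands Ccl1, Ccl19, Ccl20, Ccl21a, Ccl21b, Ccl24, Ccl26, Ccl27b and Ccl28 and the receptors Ccr8 and Cxcr1, several of them known from lymphoid organs, skin and mucosa.

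**Figure D1:**
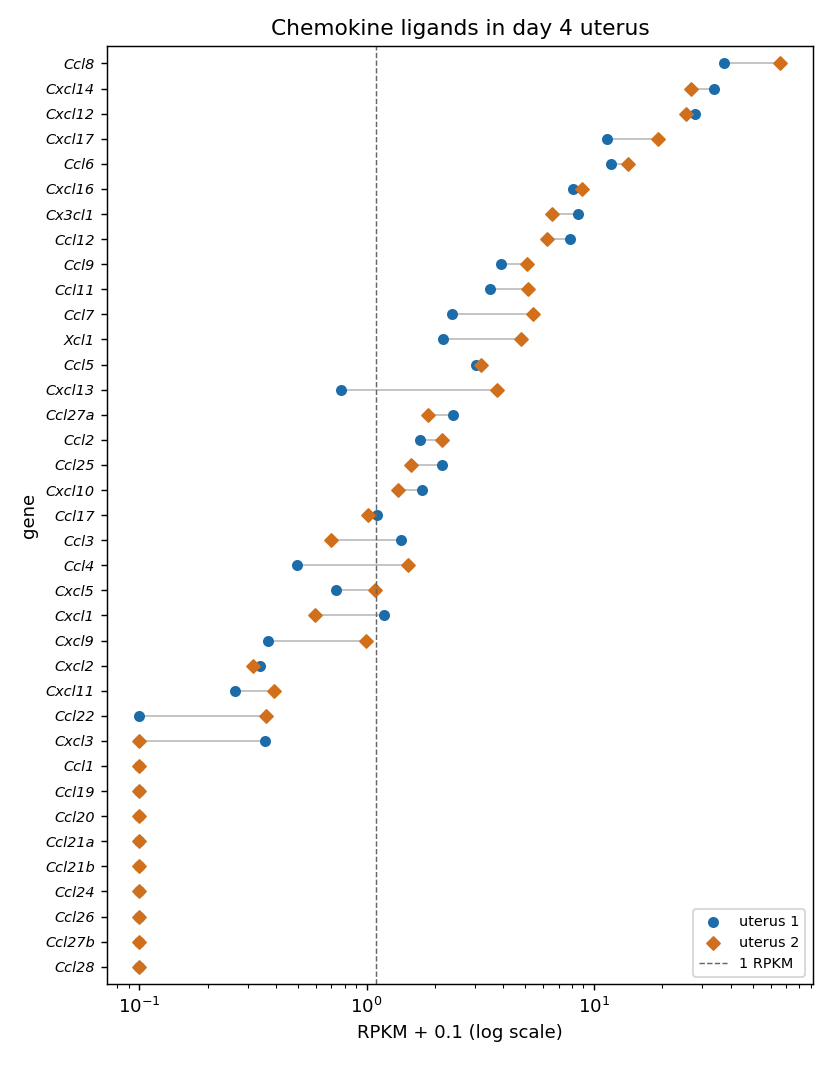
RPKM plus 0.1 on a log axis for the 37 ligands, ordered by mean, with 1 point for each uterus and a dashed line at 1 RPKM. Ccl8, Cxcl14, Cxcl12, Cxcl17 and Ccl6 are the only ligands at 10 RPKM or more in both uteri, and 9 ligands sit at 0.

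Summed over all ligands the level was 193 ± 26.9 RPKM (SD, n = 2), at 174 in uterus 1 and 212 in uterus 2. The 3 highest, Ccl8, Cxcl14 and Cxcl12, made up 56.6% of that sum in uterus 1 and 55.8% in uterus 2. The CC family had 10 of 23 members at 1 RPKM or more in both and the CXC family 5 of 12.

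Among the CC ligands, Ccl8 (NM_021443, NCBIM37 chromosome 11, 81928687 to 81930301), a chemoattractant of monocytes and T helper 2 cells, was the highest member of all. Its level was 37.3 RPKM (73 reads) in uterus 1 and 66.2 RPKM (144 reads) in uterus 2, and its mean exceeded that of 95% of genes. Uterus 2 was thus clearly the higher of the pair, and the test of that difference is given with the comparison of the animals. Ccl6 (chromosome 11, 83401388 to 83406589), a ligand of Ccr1 made by myeloid cells, followed at 11.8 and 14.1 RPKM on 65 and 86 reads. Ccl9, another ligand of Ccr1, lay at 3.82 and 5.0 RPKM on 44 and 64 reads. Its neighbour Ccl5, which attracts T cells and macrophages, lay at 2.95 and 3.10 RPKM on 6 and 7 reads.

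The ligands listed here for Ccr2, which draw monocytes out of the blood, were all present at low to moderate level. Ccl12 lay at 7.79 and 6.14 RPKM on 16 and 14 reads, Ccl7 at 2.28 and 5.29 RPKM on 7 and 18 reads, and Ccl2 at 1.62 and 2.04 RPKM on 5 and 7 reads. In these uteri Ccl12 was thus above Ccl2 in both animals, though few reads lie behind either value. Ccl11 (eotaxin), the attractant of eosinophils, lay at 3.40 and 5.04 RPKM on 14 and 23 reads. Ccl27a lay at 2.31 and 1.76 RPKM and Ccl25, a ligand of gut and thymus homing, at 2.05 and 1.48 RPKM, both higher in uterus 1. The Ccl25 entry carries a non-coding transcript identifier (NR_033527), and its reads, 5 and 4, are the smallest possible numbers. Ccl3, Ccl4 and Ccl17 passed 1 RPKM in 1 uterus only and held at most 4 reads in either, and Ccl22 held 0 and 2 reads.

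Among the CXC ligands, those without the ELR motif held nearly all of the level. Cxcl14 (NM_019568, chromosome 13, 56390006 to 56397912), a constitutively made epithelial and stromal chemokine, lay at 33.7 and 26.8 RPKM on 236 and 208 reads. Cxcl12 (NM_013655, chromosome 6, 117118553 to 117131386), the stromal ligand of Cxcr4 that retains progenitors and lymphocytes in tissues, lay at 27.7 and 25.4 RPKM on 761 and 774 reads, the most of any member. Cxcl14 was thus above Cxcl12 within each uterus, though their ranges over the 2 uteri overlap and the order was not tested. The order also rests on length, recovered as 7161 bases for Cxcl12 and 1825 for Cxcl14. No annotated length matched that of Cxcl12, whose reads are the smallest possible numbers. Cxcl17, a mucosal chemokine (chromosome 7), lay at 11.3 and 19.2 RPKM on 33 and 62 reads. Cxcl16, a membrane-bound ligand of Cxcr6, lay at 7.99 and 8.73 RPKM on 75 and 91 reads. The interferon-induced ligands of Cxcr3 were low: Cxcl10 lay at 1.66 and 1.28 RPKM, Cxcl9 at 0.269 and 0.890 RPKM and Cxcl11 at 0.163 and 0.293 RPKM. Cxcl13, which draws B cells into follicles, lay at 0.673 and 3.64 RPKM on 3 and 18 reads.

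The 4 ligands with the ELR motif, Cxcl1, Cxcl2, Cxcl3 and Cxcl5, summed to 2.23 RPKM in uterus 1 and 1.71 RPKM in uterus 2, against 83.5 and 86.2 RPKM for the 8 other CXC ligands. Cxcl11, whose coding sequence was incomplete, was counted with the others. None of the 4 reached 1 RPKM in both uteri, and 5 of the 8 others did. Cxcl1 held 4 and 2 reads, Cxcl5 4 and 7, Cxcl2 1 and 1, and Cxcl3 1 and 0. These genes form a cluster on chromosome 5, and their promoters are known to respond to NF-kB, the transcription factor of inflammatory signalling.

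The 250 bases before the transcript start of Cxcl1 and Cxcl2 are shown because both genes carry 2 matches to this motif while few reads were counted for them, and those of Ccl8 and Ccl12 because the 2 genes are neighbours at different levels. Sequences are RefSeq's on GRCm38.p6, a later build than that of the expression table, plus strand, 5′ to 3′. Capitals mark the NF-kB motif (GGG, any 2 bases, then TTTCC), searched on both strands, and the TATA box TATAAA, searched on the coding strand.
Cxcl1, chr5:90890995-90891244: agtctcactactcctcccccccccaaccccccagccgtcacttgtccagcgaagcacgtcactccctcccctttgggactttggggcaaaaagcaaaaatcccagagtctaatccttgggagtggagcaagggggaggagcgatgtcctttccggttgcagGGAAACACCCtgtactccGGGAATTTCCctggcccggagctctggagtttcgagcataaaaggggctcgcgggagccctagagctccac
Cxcl2, chr5:90903649-90903898: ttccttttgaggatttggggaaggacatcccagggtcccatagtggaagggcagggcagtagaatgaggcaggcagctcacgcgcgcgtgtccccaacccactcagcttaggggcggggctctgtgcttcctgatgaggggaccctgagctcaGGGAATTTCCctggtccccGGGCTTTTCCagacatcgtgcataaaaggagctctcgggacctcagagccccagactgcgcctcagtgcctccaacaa
Ccl8, chr11:82114935-82115184: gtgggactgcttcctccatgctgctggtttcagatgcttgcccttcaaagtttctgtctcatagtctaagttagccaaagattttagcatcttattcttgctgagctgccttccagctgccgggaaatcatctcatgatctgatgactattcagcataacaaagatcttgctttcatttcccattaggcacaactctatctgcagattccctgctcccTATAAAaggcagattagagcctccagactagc
Ccl12, chr11:82101595-82101844: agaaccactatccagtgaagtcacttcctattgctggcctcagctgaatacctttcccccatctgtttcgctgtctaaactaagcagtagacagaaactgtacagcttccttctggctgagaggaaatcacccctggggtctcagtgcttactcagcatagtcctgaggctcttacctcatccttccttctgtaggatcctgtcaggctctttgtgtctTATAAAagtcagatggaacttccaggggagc
Of the 56 members, 41 had an entry among these promoters, and the first entry of a gene was used. The NF-kB motif occurred in 5 of 26 ligand promoters and 1 of 15 receptor promoters, against 1.40% of 27025 promoters of all genes. It was present in Cxcl1, Cxcl2, Cxcl3, Ccl9, Ccl20 and Ccr3, whose mean levels ran from 0 to 4.41 RPKM. TATAAA occurred in 7 of the 26 ligand promoters and 2 of the 15 receptor promoters, against 8.12% of all, and in both Ccl8 and Ccl12. The STAT motif TTCNNNGAA was found in 3 of the 41 (7.18% of all) and the interferon response motif (GAAA, any 2 bases, then GAAA) in 3 (3.04% of all), Cxcl10, Cxcl14 and Ccl19, both searched on both strands. No match of 1 motif overlapped a match of another in these promoters. A match describes the letters of this window and is not a site shown to be used.

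Cx3cl1 (chromosome 8, 97296080 to 97306326), the membrane-anchored chemokine fractalkine of endothelium and epithelium, lay at 8.46 and 6.43 RPKM on 102 and 86 reads. Its receptor Cx3cr1, a marker of monocytes and tissue macrophages, lay at 7.85 and 5.82 RPKM on 113 and 93 reads. Ligand and receptor were thus lower in uterus 2, but neither was called by the exact binomial test given below. Xcl1, made by natural killer and T cells, lay at 2.08 and 4.68 RPKM on 4 and 10 reads. Its receptor Xcr1, which marks cross-presenting dendritic cells, lay at 1.87 and 1.32 RPKM on 32 and 25 reads.

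**Figure D2:**
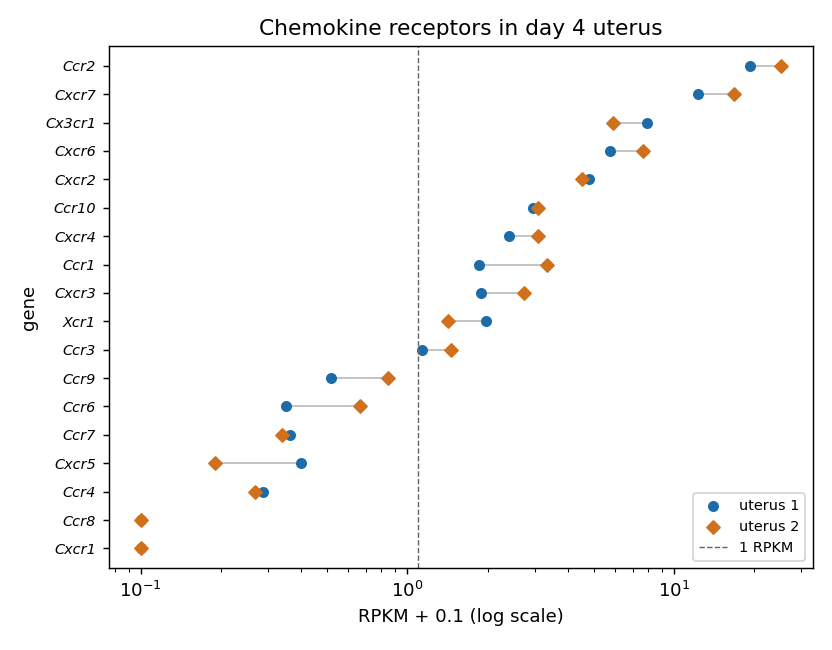
RPKM plus 0.1 on a log axis for 18 receptors, ordered by mean, with 1 point for each uterus and a dashed line at 1 RPKM. Ccr2 and Cxcr7 lie above 10 RPKM in both uteri, 9 more lie above 1 RPKM in both, and Ccr8 and Cxcr1 sit at 0.

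Receptors summed to 77.8 ± 9.47 RPKM (SD, n = 2), at 71.1 in uterus 1 and 84.4 in uterus 2. Ccr2 (NM_009915, chromosome 9, 124016922 to 124023879), the receptor of inflammatory monocytes, was highest at 19.3 and 25.0 RPKM on 265 and 382 reads, above 85.0% of genes. Cxcr7 (NM_001271607, chromosome 1, 92100555 to 92112297), now named Ackr3, an atypical receptor that takes up Cxcl12 without signalling through G proteins, lay at 12.3 and 16.7 RPKM on 109 and 165 reads. Both were higher in uterus 2, but only Ccr2 was called by the exact binomial test given below. Cxcr6, found on effector T and natural killer cells, lay at 5.65 and 7.57 RPKM on 41 and 61 reads. Cxcr2, the neutrophil receptor of the ELR ligands, lay at 4.71 and 4.40 RPKM on 55 and 57 reads.

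Lower receptors still passed 1 RPKM in both animals. Ccr10, of skin-homing T cells and IgA plasma cells, lay at 2.87 and 3.0 RPKM on 19 and 22 reads. Cxcr4 lay at 2.30 and 2.98 RPKM on 16 and 23 reads, so that Cxcr7 was 5.33 and 5.61 times Cxcr4 in RPKM in the 2 uteri. Ccr1 lay at 1.75 and 3.24 RPKM, Cxcr3 at 1.78 and 2.63 RPKM, and the eosinophil receptor Ccr3 at 1.04 and 1.36 RPKM. Receptors of lymphoid homing were lower. Ccr7, which takes dendritic cells and naive T cells to lymph nodes, and Ccr4 of T helper 2 and regulatory T cells held 2 reads in each uterus, Cxcr5 held 3 and 1, and Ccr6 held 2 and 5. Ccr9 lay at 0.416 and 0.749 RPKM on 7 and 14 reads.

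Each of the 19 receptors was set beside its textbook mouse ligands. In 11 cases the receptor and at least 1 ligand were at 1 RPKM or more in both uteri, and in 5 neither was. Cxcl12 exceeded Cxcr4 12-fold in uterus 1 and 8.52-fold in uterus 2 in RPKM. Cx3cl1 and Cx3cr1, and Cxcl16 and Cxcr6, lay within the same range of 5 to 9 RPKM. Ccr2 is the reverse of the Cxcr4 case: it lay above the sum of its listed ligands Ccl2, Ccl7 and Ccl12, which was 11.7 and 13.5 RPKM. Ccl8, also an attractant of monocytes, was set beside Ccr8 and left out of that sum. At 37.3 and 66.2 RPKM Ccl8 by itself lay above Ccr2, so the result depends on the list. Cxcr2 was at 1 RPKM or more in both, and none of the 4 ELR ligands set beside it was. Ligands passed without their receptor in 2 cases. Ccr8, to which Ccl8 binds in the mouse, was listed at 0 in both uteri, and Ccr9 stayed under 1 RPKM beside Ccl25. Of the ligands of Ccr7, Ccl19, Ccl21a and Ccl21b, all were listed at 0.

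**Figure D3:**
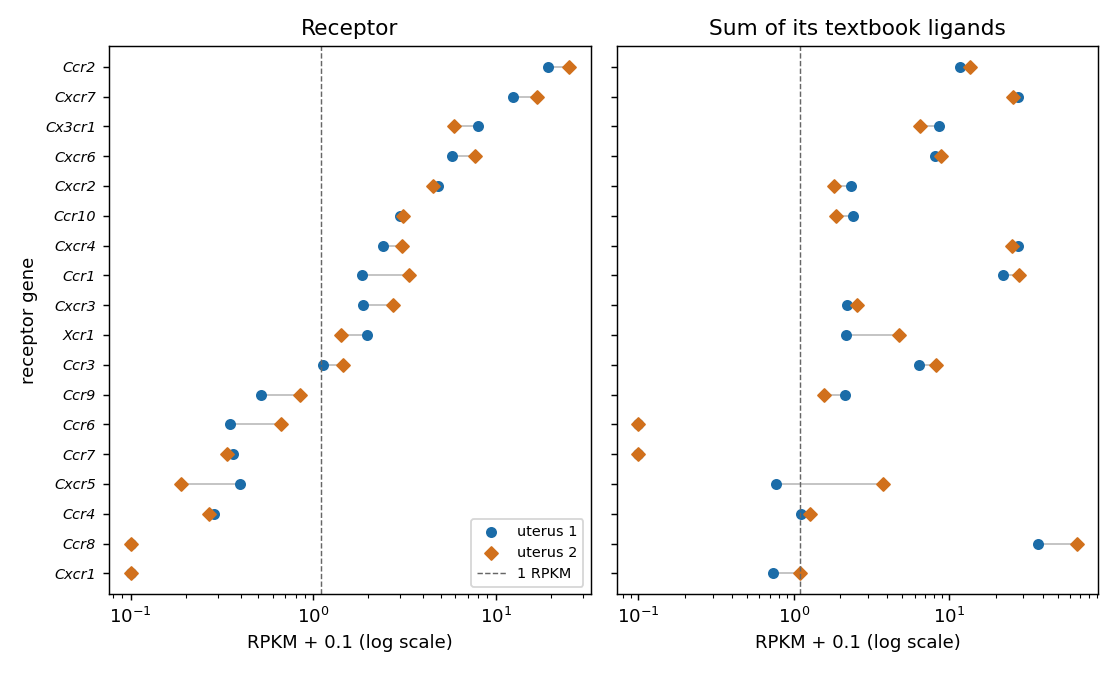
RPKM plus 0.1 on log axes for 18 receptors (left) and for the sum of the textbook ligands of each (right), 1 point for each uterus, dashed line at 1 RPKM, receptors ordered by mean. The ligand sums of Ccr8, Cxcr7, Cxcr4 and Ccr1 are the highest, and those of Ccr6 and Ccr7 are 0.

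Several zeros rest on sequence that is not unique. Of the 54 members with a coding transcript in GENCODE M1, 14 shared at least 1 stretch of 50 bases with a transcript of another gene. For 5 members the shared part was large: 100% of stretches for Ccl27b, 99.9% for Ccl21b, 99.8% for Ccl21a, 96.4% for Ccl19 and 41.9% for Ccl27a. In the other 9 it ran from 0.490% to 6.35%. The further copies in the table, Ccl21c, Gm10591, Gm13304, Gm1987, Gm13306, Gm13308 and Gm2506, were also listed at 0. How reads with several matching places were treated is not given in the sources used here, so the values of these 5 genes are uncertain. Ccl28, the mucosal ligand of Ccr10 and Ccr3, was listed at 0 and its coordinates lie on an unplaced piece of chromosome 13. Ccl6, Cxcl16, Cxcl10, Cxcl11 and Cxcr6 overlap a gene on the opposite strand, and use of strand is not given, so part of their reads may belong to that gene.

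Members lie in clusters, and levels within a cluster varied widely. With a largest gap of 250 kb between neighbours, 6 clusters held 3 or more members, 28 in all, of which 16 were at 1 RPKM or more in both uteri. On chromosome 11, Ccl2, Ccl7, Ccl11, Ccl12, Ccl8 and Ccl1 lie in this order within 144 kb (81849079 to 81993314), with means from 0 for Ccl1 to 51.7 RPKM for Ccl8. Ccl8 starts 11.8 kb after the end of Ccl12 and was 4.79 and 10.8 times its level. The second cluster of chromosome 11 (83339281 to 83478185, Ccl5, Ccl9, Ccl6, Ccl3, Ccl4) ran from 0.910 to 12.9 RPKM. The ELR cluster on chromosome 5 (91188325 to 91334964) had a highest mean of 0.812 RPKM, and the cluster of Cxcl9, Cxcl10 and Cxcl11 1.47 RPKM. The cluster on chromosome 9 is made of receptors, among them Ccr9, Cxcr6, Xcr1, Ccr1, Ccr3 and Ccr2, with means from 0.582 RPKM for Ccr9 to 22.1 RPKM for Ccr2.

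**Figure D4:**
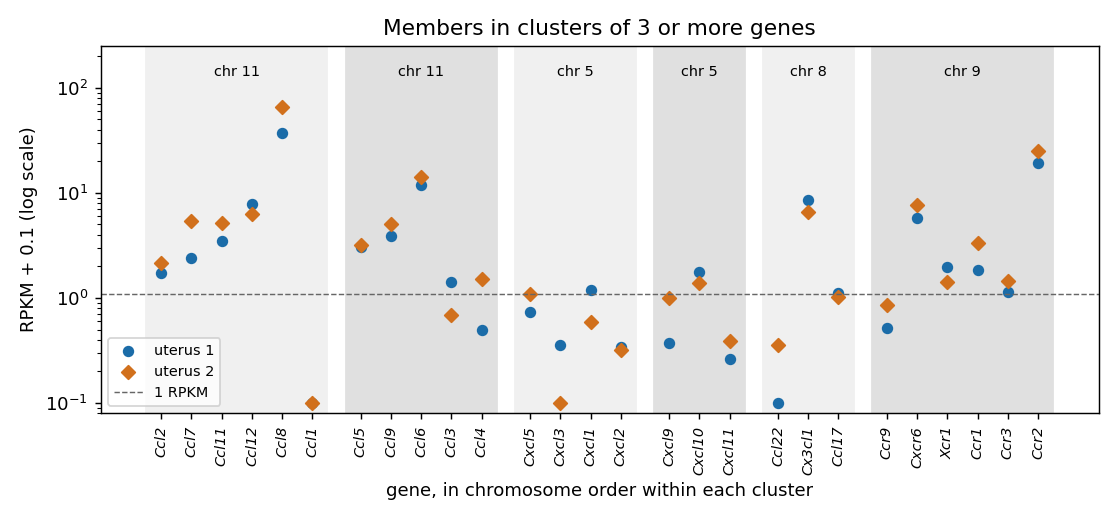
RPKM plus 0.1 on a log axis for 27 members in clusters, placed in chromosome order with 1 shaded block for each cluster, 1 point for each uterus and a dashed line at 1 RPKM. Ccl8 and Ccr2 stand highest in their clusters, and no gene of the first chromosome 5 block reaches 1 RPKM in both uteri.

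The 2 animals were then compared. Of the 30 members whose mean reached 1 RPKM, 20 were higher in uterus 2, against 50.1% of all such genes. Their median log2 ratio of uterus 2 over uterus 1, after adding 0.1 RPKM, was 0.28, against 0.000667 over all genes, and its SD over members was 0.61. Among members whose mean reached 5 RPKM the median was lower, at 0.13. A 2-fold difference was seen in 3 of the 30, Ccl7, Cxcl13 and Xcl1, against 2.6% of all genes. All 3 were higher in uterus 2, a direction and size that 1.18% of all genes showed. These 3 held at most 18 reads in either uterus, and with a pseudocount of 1 RPKM only 1 remained 2-fold apart. The count was 0 at a mean of at least 5 RPKM, 7 on the TPM scale and 10 without a filter.

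Reads of each gene were also compared by a two-sided exact binomial test with Benjamini-Hochberg adjustment over 15083 genes, which compares these 2 libraries and not conditions. It called 3 of the 36 members tested, against 4.53% of all genes. All 3 were higher in uterus 2, as 2.08% of all genes were by this test. At an unadjusted p under 0.05 it called 8 members, against 15.4% of all genes. Ccl8 was 1.78-fold higher in uterus 2, a log2 ratio of 0.83 with a 95% counting interval from 0.41 to 1.26 (exact binomial test, adjusted p 0.00272). Ccr2 was 1.30-fold higher, with an interval from 0.15 to 0.61 on the log2 scale (exact binomial test, adjusted p 0.0283). Cxcl13 was 5.41-fold higher on its 3 and 18 reads, with an interval from 0.66 to 4.84 (exact binomial test, adjusted p 0.0446). The test counts reads only, and over all genes the libraries differed by a chi-square of 3.46 per gene, more than counting error gives, so a call shows a difference between these 2 libraries and no more.

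**Figure D5:**
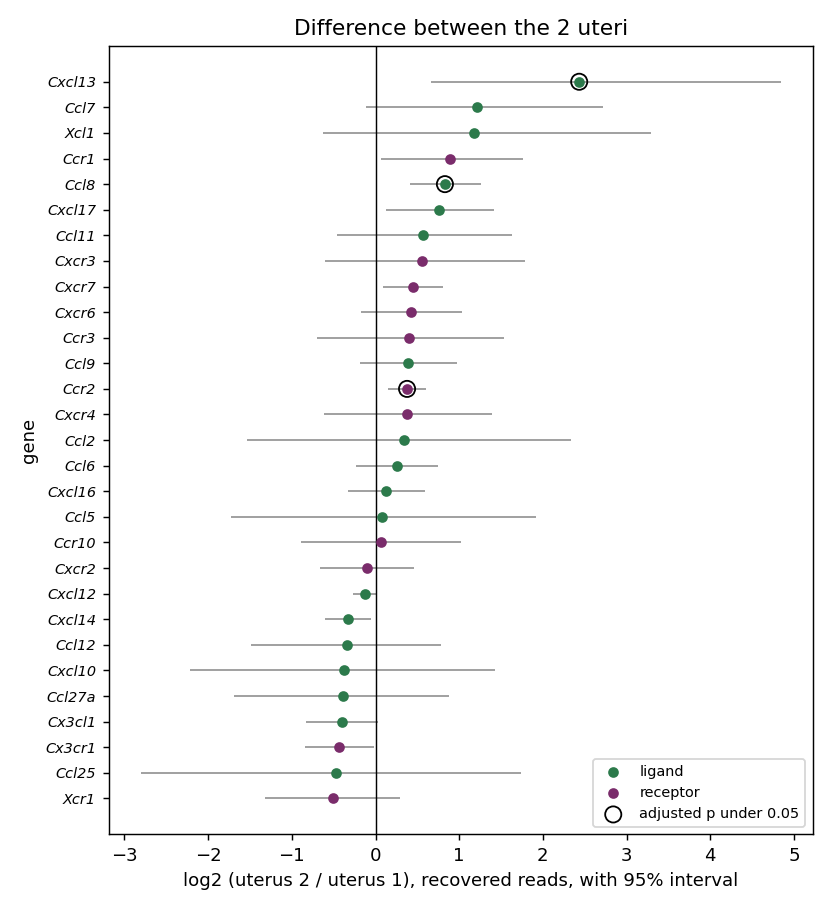
Log2 ratio of uterus 2 over uterus 1 from recovered reads for 29 members whose mean reached 1 RPKM, with exact 95% counting intervals. Circles mark Ccl8, Ccr2 and Cxcl13, the members with an adjusted p under 0.05, and most other intervals cross 0.

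Markers of leukocytes were set beside these differences. Of 50 markers of 9 leukocyte classes, 34 were at 1 RPKM or more in both uteri. The 8 macrophage and monocyte markers all passed, summed to 340 RPKM in uterus 1 and 356 in uterus 2, had a median log2 ratio of 0.01 and included none with an adjusted p under 0.05. The highest of them, Lyz2, lay at 218 and 236 RPKM, followed by Cd14 at 31.9 and 26.7 RPKM and Mrc1 at 23.4 and 26.4 RPKM. Beside Cxcl13, the 4 B cell markers summed to 2.64 and 6.4 RPKM, with 1 at 1 RPKM or more in both. Cd79a and Cd79b, chains of the B cell receptor complex, lay at 1.18 and 2.83 RPKM and at 0.653 and 2.75 RPKM, with no adjusted p under 0.05. The 5 plasma cell markers summed to 79.3 and 260 RPKM, of which Igj, the immunoglobulin J chain, made up 53.2 and 230 RPKM on 429 and 2055 reads. Igj was higher in uterus 2 by the exact binomial test (Benjamini-Hochberg adjusted p 1.7e-214), and the other 4 had no adjusted p under 0.05. Their part in the results for Ccl8, Ccr2 and Cxcl13 was not tested. Beside Ccr3 and Ccl11, 1 of 5 eosinophil markers passed, with sums of 3.89 and 4.36 RPKM and Ear1 at 0. Beside Cxcr2, 3 of 5 neutrophil markers passed, with sums of 11.9 and 18.2 RPKM, and Ly6g was not analysed here. Retnlg lay at 6.43 and 11.2 RPKM on 15 and 29 reads, Csf3r at 3.16 and 3.48 RPKM on 49 and 60 reads, and S100a8 at 1.33 and 1.20 RPKM on 2 and 2 reads. Natural killer markers passed in 5 of 6 cases, with sums of 13.8 and 13.1 RPKM, and T cell markers in 2 of 6, with 11.9 and 12.1 RPKM. Dendritic markers passed in 5 of 5 cases, with 16.3 and 15.3 RPKM, and mast cell markers in 5 of 6, with 30.3 and 34.0 RPKM. The labelled tissue was checked by its stroma, epithelium and smooth muscle lists, whose 17 members were all at 1 RPKM or more in both uteri. Stroma markers summed to 4029 and 3872 RPKM, epithelium markers to 255 and 284 RPKM and smooth muscle markers to 1741 and 1737 RPKM. The 5 blood endothelium markers all passed, with sums of 148 and 141 RPKM, and 4 of 5 lymphatic endothelium markers did, with 30.3 and 29.1 RPKM. Platelet markers passed in 2 of 4 cases, with 7.44 and 3.37 RPKM and Ppbp and Gp9 at 0. Ovary and oviduct markers passed in 2 of 5, with 9.94 and 14.0 RPKM and Cyp19a1 at 0. Those 2 were Ovgp1, at 5.78 and 9.31 RPKM on 56 and 100 reads, and Star, at 2.93 and 3.87 RPKM on 45 and 66 reads. They were higher in uterus 2, with no adjusted p under 0.05.

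Tissue markers also differed between the libraries by the same test, with 2 genes called in each of the stroma, epithelium, smooth muscle and blood endothelium lists. Col1a1 (stroma, 1184 and 851 RPKM), Cldn4 (epithelium, 11.4 and 5.19 RPKM), Acta2 (smooth muscle, 653 and 592 RPKM) and both Kdr (22.9 and 16.6 RPKM) and Vwf (13.1 and 9.57 RPKM) of blood endothelium were lower in uterus 2. Dcn (stroma, 456 and 578 RPKM), Krt18 (epithelium, 70.4 and 94.3 RPKM) and Myh11 (smooth muscle, 313.7 and 350.1 RPKM) were higher in uterus 2. Calls within the stroma, epithelium and smooth muscle lists thus went in both directions. The rest of the blood endothelium list was slightly higher in uterus 2, with no adjusted p under 0.05. Pecam1 lay at 50.7 and 50.9 RPKM, Cdh5 at 44.4 and 46.0 RPKM and Tek at 16.8 and 17.5 RPKM. The part of these tissue markers in the members' differences was not tested.

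Genes around the family were taken from fixed lists. Of 9 atypical and related receptors, 6 were at 1 RPKM or more in both uteri. Darc, which binds many inflammatory chemokines on venules and red cells, lay at 8.56 and 6.09 RPKM. Ccrl1, which removes Ccl19, Ccl21 and Ccl25, lay at 3.59 and 2.45 RPKM, and Ccbp2, which removes inflammatory CC ligands, at 1.31 and 1.01 RPKM. Ccrl2 lay at 1.36 and 0.668 RPKM. All 4 were lower in uterus 2, with no adjusted p under 0.05. The rest of the list, Cmklr1, C5ar1, Fpr1, Gpr75 and Fpr2, lay higher in uterus 2, and none of these was called either. Cmklr1 lay at 3.94 and 6.77 RPKM and its ligand Rarres2 (chemerin), at 68.5 and 65.0 RPKM, had a mean above that of every member. Of 5 chemokine-like ligands outside the symbol rule 4 passed, none with an adjusted p under 0.05. Mif, a cytokine that also binds Cxcr2 and Cxcr4, was the highest of them at 207 and 212 RPKM. The platelet chemokine Pf4 lay at 5.77 and 2.0 RPKM on 13 and 5 reads, and Ppbp was listed at 0.

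All 11 G protein and arrestin genes were at 1 RPKM or more in both, led by Gnai2 at 123 and 118 RPKM, Gnb2 at 119 and 103 RPKM and Gnb1 at 88.6 and 87.0 RPKM. All 12 genes of leukocyte signal output passed as well, led by Rgs2 at 149 and 139 RPKM, Rac1 at 112 and 118 RPKM and Ptk2b at 19.7 and 20.3 RPKM. Rac2, the form confined mainly to blood cells, lay at 8.85 and 7.74 RPKM. All 11 genes of heparan sulfate display passed, led by Sdc4 at 53.9 and 56.6 RPKM, Sdc1 at 32.5 and 36.1 RPKM and Ext2 at 31.1 and 28.6 RPKM. Of these 11, Ndst1 was lower in uterus 2 by the exact binomial test (adjusted p 0.0151), at 23.8 and 19.1 RPKM.

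All 8 proteases known to cut chemokines or their anchors passed, led by Mmp2 at 163.9 RPKM in uterus 1 and 164 in uterus 2. Mmp14 lay at 109 and 93.1 RPKM, and Adam10, which sheds Cx3cl1 and Cxcl16 from membranes, at 43.5 and 36.8 RPKM. Both were lower in uterus 2 by the exact binomial test (adjusted p 0.0137 and 0.0320). Dpp4, which trims Cxcl12, lay at 5.38 and 7.57 RPKM. Of 11 genes of NF-kB and its inducers 8 passed, led by Myd88 at 77.9 and 89.0 RPKM, Nfkbia at 46.6 and 49.3 RPKM and Nfkb1 at 28.1 and 28.4 RPKM. The inducers themselves were low: Il1b lay at 1.38 and 1.95 RPKM, Tnf at 0.322 and 0.581 RPKM, and Il6 held 3 and 0 reads, while Ifng was listed at 0.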

How the data were processed

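Poly-A RNA of whole uterus from 2 independent mice was sequenced, and the authors deposited RPKM values, per the labels. The submitters' processing notes name TopHat, edgeR and mm9, with no role or order. The counting program and use of strand are not given in the sources used here. All 22740 genes had the same values in the annotated table, which gave identifiers and coordinates. Those coordinates were compared with GENCODE M1 (NCBIM37): 11970 of 20733 matched genes had a transcript start 1 base after the deposited start, so starts were read as counted from 0 and are printed counted from 1. No column of values was left unmatched.

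The deposited RPKM equal reads divided by length and by a library total. Totals of 3834174 and 4256101 (after rounding) were found from genes of 1 exon with equal lowest values, and each value was then written as reads over length in lowest terms (relative tolerance 1e-10). A common factor was chosen by nearness to an annotated length (scale 0.05 in its logarithm, weight 0.005 for no match), and small factors were favoured. Of 584 genes of 1 exon, 88.5% returned a length equal to the deposited span. For 7 members no annotated length matched, and their reads are the smallest possible. Intervals (exact Clopper-Pearson, 95%) cover counting error only.

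Ratios were taken after adding 0.1 RPKM, for genes whose mean reached 1 RPKM, on a scale that understates the change of low genes. The exact binomial test used genes with at least 6 reads in sum, and the procedure was tested on simulated data. The spread between 2 libraries may be technical as well as biological. Except for 1 member that is counted but not reported here, every member whose mean reached 1 RPKM is named with its values, lower members are given by count, range and name, and the 3 highest genes of each pathway list are named with values. Cell type lists are given by counts and sums. Their genes are named only beside a member's result, where listed at 0, where the test called them or beside such a gene. The rule for members uses symbols only, but the family, like the lists, was chosen with earlier results of these data known. Python 3.11.15, scipy 1.17.1 and pandas 2.3.3 were used.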

Additional observations from a re-analysis of the deposited data

How the results depend on the processing

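Counts at 1 RPKM in both uteri kept within 1.5 times under every alternative run: members ran from 21 (threshold of 2 RPKM) to 34 (TPM scale), ligands from 13 to 22 and receptors from 8 to 13. These include a rule of at least 5 recovered reads in both uteri, chosen after seeing the data, which gave 28 members. Leaving out a replicate gave 31 and 32 members, 19 and 20 ligands and 12 receptors, summed ligands of 174 to 212 RPKM and summed receptors of 71.1 to 84.4 RPKM. On the TPM scale the sums were 457 for ligands and 184 for receptors, since the unit changes. The median log2 ratio of members ran from 0.13 (mean of at least 5 RPKM) to 0.32 (TPM scale). The count of members at least 2-fold apart was 1 with a pseudocount of 1, 10 without a filter, 0 at a mean of at least 5 RPKM and 7 on the TPM scale, against 3, and the cause was not tested. The exact binomial test called 3 members under all of its settings, with adjusted p-values from 0.00241 to 0.00304 for Ccl8, 0.0252 to 0.0316 for Ccr2 and 0.0397 to 0.0498 for Cxcl13. Of the members above 0, 19 held under 20 reads in sum, where counting intervals of the ratio are wide, and those under 6 reads in sum were not tested. No paired analysis was possible because both libraries belong to the same group.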
